A study of Mus musculus with 24 samples.

Results

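The dystrophin glycoprotein complex was followed through 8 genes, *Dmd*, *Utrn*, *Dag1*, *Sgca*, *Sgcb*, *Sgcd*, *Sspn* and *Dtna*, in neonatal mouse hearts with and without Xinβ. The genes were chosen by name, by matching Ensembl identifiers to symbols. All 8 were listed in both deposited tables, among 15667 genes measured in uninjected hearts and 15327 in injected hearts, and all 8 passed the filter on low values.

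The 24 RNA-seq libraries, 4 in each of 6 groups, were made from the heart at postnatal day 7.5, from the apex by the labels and from the ventricles by the study's methods. Uninjected WT and XinβKO hearts formed the first experiment. In the second, WT and XinβKO mice were injected at postnatal day 1 with AAV9 carrying GFP or the active YAP S127A, which gave the groups WT/GFP, XinβKO/GFP, WT/YAP and XinβKO/YAP. XinβKO mice carry a germline insertion of a LacZ-Neo cassette in place of part of *Xirp2*, the gene of Xinβ, on a C57BL6 background, and WT littermates were the controls. Both vectors use the cardiac troponin T promoter, so the transgenes are meant for cardiomyocytes. The YAP transgene is the human sequence with a Flag tag, and the mouse gene *Yap1* does not report it. The tissue holds mixed cell types, in which fewer cells of a type and less RNA per cell cannot be told apart.

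Dystrophin, the product of *Dmd*, ties cortical actin to the muscle cell membrane, and utrophin, from *Utrn*, is its close relative. Both bind β-dystroglycan, while α-dystroglycan, made from the same gene *Dag1*, binds laminin outside the cell through sugars added by a dedicated set of enzymes. The sarcoglycans, here *Sgca*, *Sgcb* and *Sgcd*, and sarcospan, from *Sspn*, form a membrane subcomplex beside dystroglycan, and α-dystrobrevin, from *Dtna*, joins dystrophin on the inner face and carries the syntrophins. Loss of dystrophin or of a sarcoglycan causes muscular dystrophy with cardiomyopathy. In cardiomyocytes the complex is also known to hold YAP at the membrane.

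YAP acts on genes through TEAD factors, which recognise the letters CATTCC. The promoter windows of RefSeq (GRCm38.p6), from 250 bases before to 50 bases after a transcription start, were searched for these letters on both strands. There were 10 windows for 7 of the 8 genes, and 3 of the 10 held CATTCC, in *Sspn* and *Sgcd*, where 14.7% of all 32851 windows held it. The windows of *Dmd*, *Utrn*, *Dag1*, *Sgca* and *Sgcb* did not hold these letters. Of the complex partners described below, *Cav3* held them and *Sync* did not. The windows with a match are printed 5′ to 3′ on the strand of the gene, to show where the letters lie, with the match in capitals (GGAATG is CATTCC on the opposite strand).
Sspn, first window, chr6:145931623-145931922, + strand, match from base -209: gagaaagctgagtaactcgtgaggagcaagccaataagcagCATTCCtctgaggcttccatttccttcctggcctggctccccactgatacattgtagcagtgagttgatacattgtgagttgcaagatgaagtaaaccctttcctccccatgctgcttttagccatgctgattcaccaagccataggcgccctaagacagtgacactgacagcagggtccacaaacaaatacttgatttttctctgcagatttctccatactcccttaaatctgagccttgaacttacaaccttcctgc
Sspn, second window, chr6:145933872-145934171, + strand, match from base -113: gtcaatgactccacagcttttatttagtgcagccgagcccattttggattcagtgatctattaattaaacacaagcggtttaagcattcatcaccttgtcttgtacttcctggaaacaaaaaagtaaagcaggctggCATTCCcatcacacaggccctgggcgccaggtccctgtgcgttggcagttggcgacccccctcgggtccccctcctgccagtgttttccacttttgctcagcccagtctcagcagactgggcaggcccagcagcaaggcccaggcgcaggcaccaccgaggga
Sgcd, chr11:47379276-47379575, - strand, match from base -133: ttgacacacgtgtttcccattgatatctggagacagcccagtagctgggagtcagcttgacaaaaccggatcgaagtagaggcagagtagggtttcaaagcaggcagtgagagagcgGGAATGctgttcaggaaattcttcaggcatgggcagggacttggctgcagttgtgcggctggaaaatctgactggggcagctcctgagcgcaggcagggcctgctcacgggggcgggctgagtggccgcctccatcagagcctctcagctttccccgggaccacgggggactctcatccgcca
Cav3, chr6:112459255-112459554, + strand, match from base 19: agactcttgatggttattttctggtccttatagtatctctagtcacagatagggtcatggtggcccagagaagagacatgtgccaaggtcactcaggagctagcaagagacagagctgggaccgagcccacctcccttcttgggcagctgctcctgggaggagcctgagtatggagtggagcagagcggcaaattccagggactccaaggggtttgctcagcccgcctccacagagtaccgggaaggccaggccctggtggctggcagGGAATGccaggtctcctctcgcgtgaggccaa
Positions count from the start, negative before it. A match is a description of the letters and not a measured binding site.

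Values are CPM on scaled library sizes, as deposited, and log2 fold changes are differences of mean log2(CPM + 1) with a limma test and Benjamini-Hochberg adjustment over all tested genes. A gene was called at an adjusted p under 0.05. The libraries held 20490875 to 31154155 reads on genes in uninjected hearts and 15015038 to 19444404 in injected hearts, and the lowest value of any of the 8 genes rested on 60 reads (*Sgcd*, WT/YAP). *Xirp2* was at 106 to 168 CPM in uninjected WT hearts and at 0.291 to 0.692 CPM in XinβKO hearts. In the injected hearts it was between 56.0 and 149 CPM in WT libraries and at most 0.972 CPM in XinβKO libraries, of which XinβKO/YAP replicate 4 had 0 reads, a count that allows up to 0.172 CPM (counting error only). *Yap1* was at 80.9 to 93.6 CPM in the 16 injected libraries. In uninjected XinβKO hearts it was at 47.9, 99.0, 50.1 and 49.7 CPM against 90.7 to 103 CPM in WT hearts (log2 fold change -0.71, limma adjusted p = 0.086).

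Levels between genes were compared per kilobase of annotated exon (GENCODE M21), since the genes differ in length from 1735 bases for *Sgca* to 23801 for *Dmd*. In WT/GFP hearts the order was *Dag1* (50.5 ± 5.17 CPM per kb, SD, n = 4), *Sspn* (42.9 ± 4.59), *Sgca* (29.1 ± 4.03), *Sgcb* (23.5 ± 1.57), *Utrn* (5.16 ± 0.703), *Dtna* (2.08 ± 0.25), *Dmd* (1.70 ± 0.488) and *Sgcd* (0.693 ± 0.0844). The ranges over libraries overlapped between *Dag1* and *Sspn*, between *Sgca* and *Sgcb*, and between *Dtna* and *Dmd*, so these neighbours were not separated by their spread, and the other neighbours were. The injected groups kept this order with 1 exchange, *Dmd* (2.61 ± 0.484 CPM per kb) above *Dtna* (2.22 ± 0.346) in XinβKO/YAP hearts, where their ranges overlapped. Uninjected WT hearts led with *Sspn* (47.9 ± 1.96 CPM per kb), with *Dag1* (43.5 ± 15.0) overlapping it. In uninjected XinβKO hearts *Sspn* stood at 26.7 ± 18.8 CPM per kb, below *Dag1*, *Sgca* and *Sgcb*, with a range that overlapped the range of *Sgcb*. The exon lengths take every annotated exon together, so a gene with short isoforms is set too low. The tables of uninjected and injected hearts were normalized separately and differ in read length, and no test was made between them.

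None of the 8 genes was called in any of the 7 comparisons made, 6 between groups and 1 of genotype by vector. In uninjected hearts 0 of 8 were called, where 6.69% of 15598 tested genes were. At an unadjusted p under 0.05, 3 of 8 passed (*Dtna* and *Sgcb* higher, *Sspn* lower in XinβKO hearts), where 22.5% of all genes did. DESeq2 called 1 of the 8 there, and over all genes it called 1951 where limma called 1044. Both edgeR tests called 0 of the 8. In XinβKO/GFP against WT/GFP hearts 0 of 8 were called against 13.7% of 14597 genes, and 0 of 8 passed unadjusted against 27.4%. In XinβKO/YAP against XinβKO/GFP hearts 0 of 8 were called against 14.8% of genes, with 1 of 8 unadjusted (*Sgca*, lower) against 29.6%. In XinβKO/YAP against WT/GFP hearts 0 of 8 were called against 0.0206% of genes, with 2 of 8 unadjusted (*Dmd* and *Sgcd*, higher) against 6.08%. In WT/YAP against WT/GFP hearts 0 of 8 were called against 0% of genes, with 0 of 8 unadjusted against 6.93%. In XinβKO/YAP against WT/YAP hearts 0 of 8 were called against 0.0411% of genes, with 2 of 8 unadjusted (again *Dmd* and *Sgcd*, higher) against 11.1%. For the genotype by vector term 0 of 8 were called against 7.56% of genes, and 0 of 8 passed unadjusted against 23.7%. In the 6 injected comparisons the edgeR quasi-likelihood test and DESeq2 called 0 of 8. The edgeR exact test was not run for the genotype by vector term. It called *Dmd* in XinβKO/YAP against WT/YAP hearts, where it called 226 of 14597 genes, and 0 of 8 in the other 4. The comparisons within the injected table share libraries, so they are not independent of each other.

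**Figure D1:**
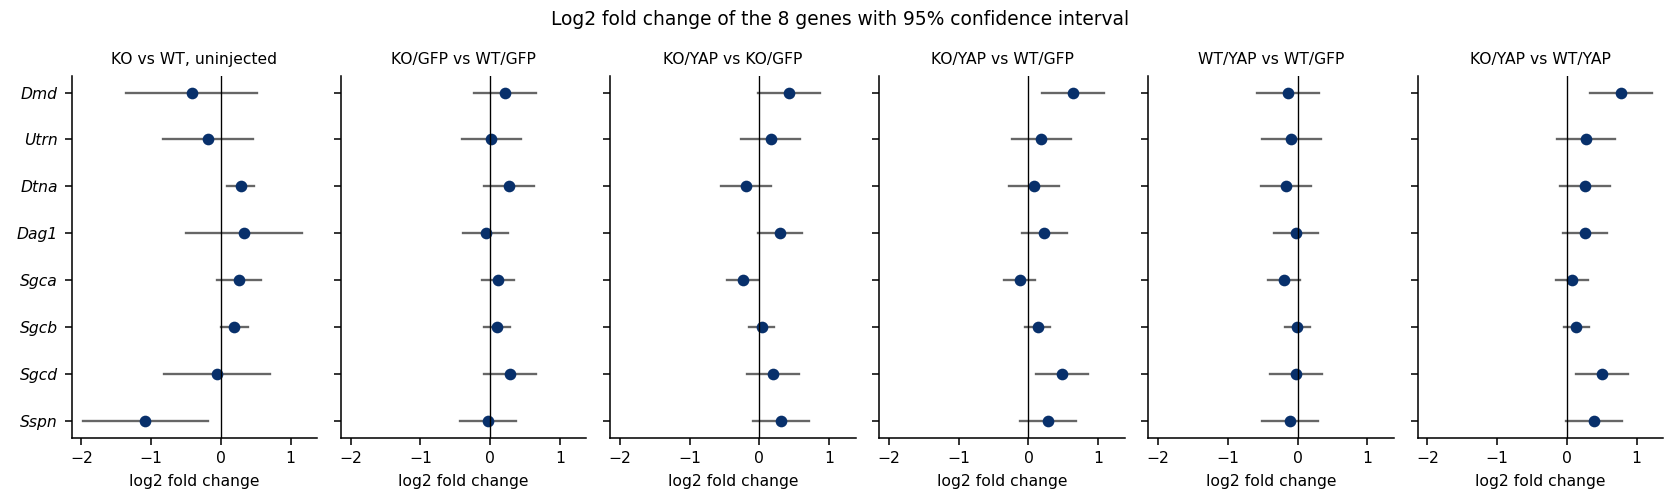
Log2 fold change (x axis) of each of the 8 genes (rows) in the 6 comparisons between groups, on the log2(CPM + 1) scale, with points for estimates and lines for 95% confidence intervals from limma. The *Sspn* interval in uninjected hearts reaches from -1.98 to -0.19, and the *Dmd* and *Sgcd* intervals lie above 0 in both right-hand comparisons of XinβKO/YAP with WT hearts.

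In 4 libraries 5 or more of the 8 genes had the lowest value of their group. In uninjected XinβKO replicate 1, 6 of the 8 genes had the lowest value of their group, where 36.3% of all tested genes did. XinβKO/GFP replicate 2 was lowest in its group for 6 of 8 genes against 33.0% of all genes, WT/YAP replicate 4 for 8 of 8 against 28.3%, and XinβKO/YAP replicate 3 for 5 of 8 against 25.7%. A transcript length index, the median centred log2 level of genes in the top decile of exon length less that of the bottom decile, was -0.98 in uninjected XinβKO replicate 1 and between -0.03 and 0.25 in the other 7 uninjected libraries. In the injected libraries it was lowest in XinβKO/GFP replicate 2 (-0.41), WT/GFP replicate 1 (-0.26) and WT/YAP replicate 4 (-0.19), and it lay between 0.03 and 0.21 in the 4 XinβKO/YAP libraries. *Dmd*, *Utrn* and *Dtna* are in the top decile of exon length. The part of this index in the group differences was not tested beyond the fits given below without single libraries and with the index as a covariate.

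**Figure D2:**
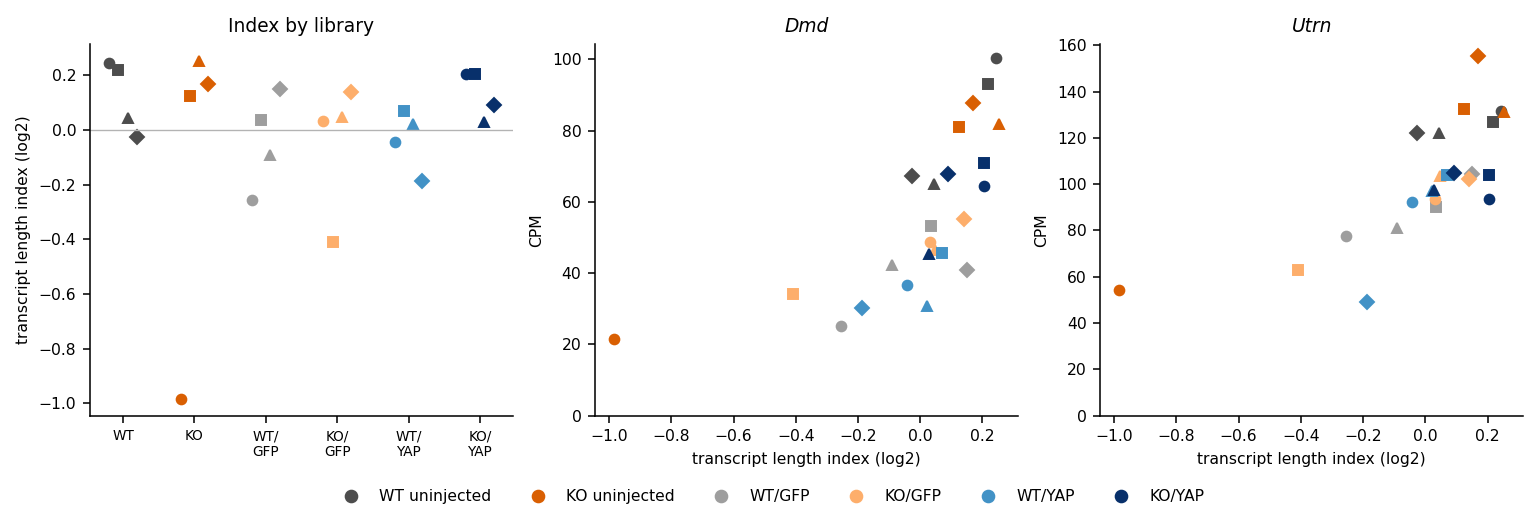
Transcript length index of each library by group (left, log2), and CPM of *Dmd* (middle) and *Utrn* (right) against that index, 1 point a library, with colours for groups and marker shapes for replicates 1 to 4 (circle, square, triangle, diamond). The lowest index, -0.98, and the lowest *Dmd* value, 21.4 CPM, belong to the same library, uninjected XinβKO replicate 1. The index was centred within each table.

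*Dmd* (ENSMUSG00000045103, chrX:82948870-85206141, + strand, GRCm38) was at 100.4, 93.1, 65.0 and 67.4 CPM in uninjected WT hearts and at 21.4, 81.0, 81.9 and 87.8 CPM in XinβKO hearts. XinβKO replicate 1 was far below all others, and the other 3 lay within the WT range. The log2 fold change was -0.42 (95% confidence interval -1.36 to 0.52), and 0.06 without that library. In injected hearts *Dmd* was at 25.1, 53.3, 42.3 and 41.0 CPM in WT/GFP, 48.6, 34.0, 46.4 and 55.3 CPM in XinβKO/GFP, 36.7, 45.5, 30.9 and 30.1 CPM in WT/YAP and 64.3, 71.0, 45.3 and 67.8 CPM in XinβKO/YAP. In XinβKO/YAP 3 of the 4 libraries were above all 12 others, and replicate 3 lay among them. XinβKO/YAP exceeded WT/YAP by a log2 fold change of 0.78 (0.33 to 1.22, unadjusted p = 0.0018, limma adjusted p = 0.26) and WT/GFP by 0.64 (0.19 to 1.08, adjusted p = 0.71). Against XinβKO/GFP the difference was 0.42 (-0.02 to 0.87, adjusted p = 0.19). With the length index as a covariate, chosen after seeing the data, these 3 differences were 0.53, 0.38 and 0.15. The difference from WT/YAP was 0.70 without WT/YAP replicate 4 and 0.92 without XinβKO/YAP replicate 3. The genotype by vector term for *Dmd* was 0.57 (-0.06 to 1.19), and 0.77 without WT/GFP replicate 1. *Dmd* lies on the X chromosome and the groups mix sexes. With the level of the Y-linked gene *Ddx3y* as a covariate *Dmd* was called in 0 of the 7 comparisons. Without the covariate it was also called in 0 of 7, so this count cannot show what the mix of sexes adds.

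*Utrn* (ENSMUSG00000019820, chr10:12382188-12869365, - strand) was at 132, 127, 122 and 122 CPM in uninjected WT hearts and at 54.4, 133, 131 and 155 CPM in XinβKO hearts, where replicate 1 was again alone at the bottom. The log2 fold change was -0.19 (-0.83 to 0.46), and 0.15 without that library. Injected groups had means of 88.3 ± 12.02 CPM in WT/GFP, 90.6 ± 19.0 in XinβKO/GFP, 85.6 ± 24.9 in WT/YAP and 99.9 ± 5.32 in XinβKO/YAP (SD, n = 4), with overlapping ranges. The largest of the injected differences was XinβKO/YAP against WT/YAP, 0.28 (-0.15 to 0.70), and it was 0.03 without WT/YAP replicate 4. With the length index as a covariate, 3 other *Utrn* values changed sign. XinβKO/YAP against XinβKO/GFP went from 0.17 to -0.10, and XinβKO/YAP against WT/GFP from 0.18 to -0.07. The genotype by vector term went from 0.26 to -0.003. Utrophin is known to rise in dystrophin-deficient muscle, so the ratio of *Utrn* to *Dmd* per kilobase was taken in each library. It was 1.82, 1.89, 2.61 and 2.52 in uninjected WT hearts and 3.54, 2.28, 2.23 and 2.46 in XinβKO hearts. In injected hearts it ranged from 2.35 to 4.29 in WT/GFP, 2.57 to 3.10 in XinβKO/GFP, 2.27 to 4.38 in WT/YAP and 2.02 to 2.99 in XinβKO/YAP. The ranges of every pair of groups in a table overlapped, and *Utrn* exceeded *Dmd* per kilobase in all 24 libraries.

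*Dtna* (ENSMUSG00000024302, chr18:23415135-23659715, + strand) was at 45.8, 40.2, 46.4 and 46.3 CPM in uninjected WT hearts and at 55.4, 53.9, 53.8 and 54.7 CPM in XinβKO hearts. All 4 XinβKO values were above all 4 WT values, and replicate 1 was the highest of them. The log2 fold change of 0.28 (0.09 to 0.48) had an unadjusted p of 0.010 and a limma adjusted p of 0.089. DESeq2 on recovered reads gave 0.30 with an adjusted p of 0.011, and the fit with the length index 0.27 with an adjusted p of 0.039. In injected hearts *Dtna* was at 39.3, 29.3, 36.6 and 35.7 CPM in WT/GFP and at 46.9, 32.0, 37.4 and 57.5 CPM in XinβKO/GFP, which overlapped (0.27, -0.09 to 0.63, adjusted p = 0.33, 0.40 without XinβKO/GFP replicate 2 and 0.13 without replicate 4). Means were 31.3 ± 5.38 CPM in WT/YAP and 37.6 ± 5.86 CPM in XinβKO/YAP (SD, n = 4).

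*Dag1* (ENSMUSG00000039952, chr9:108204634-108263958, - strand) was the most spread gene of the 8 among uninjected WT hearts, at 312, 216, 184 and 394 CPM, and was at 183, 486, 258 and 539 CPM in XinβKO hearts. The groups overlapped over most of their range (0.33, -0.50 to 1.17), and single libraries moved the difference, to 0.62 without XinβKO replicate 1, 0.15 without replicate 2 and 0.10 without replicate 4. In WT hearts 96.8% of all genes had a smaller spread than *Dag1*. Injected hearts were tighter, with means of 321 ± 32.9 CPM in WT/GFP, 312 ± 64.1 in XinβKO/GFP, 316 ± 33.3 in WT/YAP and 379.6 ± 65.0 in XinβKO/YAP (SD, n = 4). XinβKO/YAP differed from XinβKO/GFP by 0.29 (-0.02 to 0.61, limma adjusted p = 0.20), and by 0.14 without XinβKO/GFP replicate 2.

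Of the sarcoglycans, *Sgcb* (ENSMUSG00000029156, chr5:73632749-73647790, - strand) was at 116, 119, 119 and 117 CPM in uninjected WT hearts and at 125, 142, 145 and 128 CPM in XinβKO hearts. The groups did not overlap, and the difference was small (0.19, 0.0026 to 0.39, limma adjusted p = 0.22). It was 0.22 with the length index as a covariate, where the adjusted p was 0.047. Between injected groups it stayed within 0.14 of 0 on the log2 scale, with means of 95.2 to 104 CPM. *Sgca* (ENSMUSG00000001508, chr11:94962791-94976327, - strand) was at 52.7, 62.6, 63.6 and 64.6 CPM in uninjected WT hearts and at 91.8, 72.9, 71.8 and 58.5 CPM in XinβKO hearts. Here replicate 1, low for *Dmd* and *Utrn*, was the highest, and the groups overlapped (0.26, -0.06 to 0.58, and 0.15 without that library). In injected XinβKO hearts *Sgca* was at 52.8, 58.3, 58.3 and 48.5 CPM with GFP and at 47.8, 45.0, 43.5 and 47.4 CPM with YAP, groups that did not overlap. This difference of -0.24 (-0.46 to -0.01) had a limma adjusted p of 0.15. In WT hearts the vector difference was -0.20 (-0.42 to 0.03, and -0.12 without WT/YAP replicate 4), and the genotype by vector term was -0.04 (-0.36 to 0.28).

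*Sgcd* (ENSMUSG00000020354, chr11:46896253-47988969, - strand) was the lowest of the 8 per kilobase in all 6 groups. It was at 14.4, 14.1, 13.9 and 10.5 CPM in uninjected WT hearts and at 5.20, 14.9, 15.7 and 19.7 CPM in XinβKO hearts (-0.06, and 0.32 without XinβKO replicate 1). The injected hearts had *Sgcd* values of 6.10, 6.08, 4.68 and 6.03 CPM in WT/GFP, 8.57, 7.13, 6.44 and 6.55 CPM in XinβKO/GFP, 6.30, 5.67, 6.83 and 3.94 CPM in WT/YAP and 9.53, 7.30, 6.29 and 10.98 CPM in XinβKO/YAP. Both XinβKO groups lay wholly above WT/GFP, and both overlapped WT/YAP. XinβKO/YAP exceeded WT/YAP by 0.51 (0.13 to 0.88, limma adjusted p = 0.31, and 0.37 without WT/YAP replicate 4) and WT/GFP by 0.48 (0.11 to 0.85, adjusted p = 0.72). XinβKO/GFP exceeded WT/GFP by 0.28 (-0.09 to 0.65, adjusted p = 0.32).

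*Sspn* (ENSMUSG00000030255, chr6:145931641-145965223, + strand) had the largest difference of the 8 in uninjected hearts. WT hearts had 242, 252, 232 and 232 CPM, and XinβKO hearts had 52.0, 269, 112 and 102 CPM. In XinβKO replicates 1, 3 and 4 it was at 112 CPM or lower, and replicate 2 was above all WT libraries. The log2 fold change was -1.08 (-1.98 to -0.19, unadjusted p = 0.023, limma adjusted p = 0.14). Without XinβKO replicate 2 it was -1.50 (adjusted p = 0.020), and without XinβKO replicate 1 it was -0.72 (unadjusted p = 0.047). *Yap1* was low in the same 3 XinβKO libraries. In XinβKO/GFP hearts *Sspn* was at 257, 123, 238 and 257 CPM against 202, 221, 191 and 243 CPM in WT/GFP hearts, with a log2 fold change of -0.03 (-0.43 to 0.38), and of 0.23 without replicate 2. XinβKO/YAP hearts, at 248, 242, 246.8 and 307 CPM, lay above all WT/YAP hearts, at 224, 204, 212 and 157 CPM (0.39, -0.01 to 0.80, adjusted p = 0.45, and 0.28 without WT/YAP replicate 4).

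**Figure D3:**
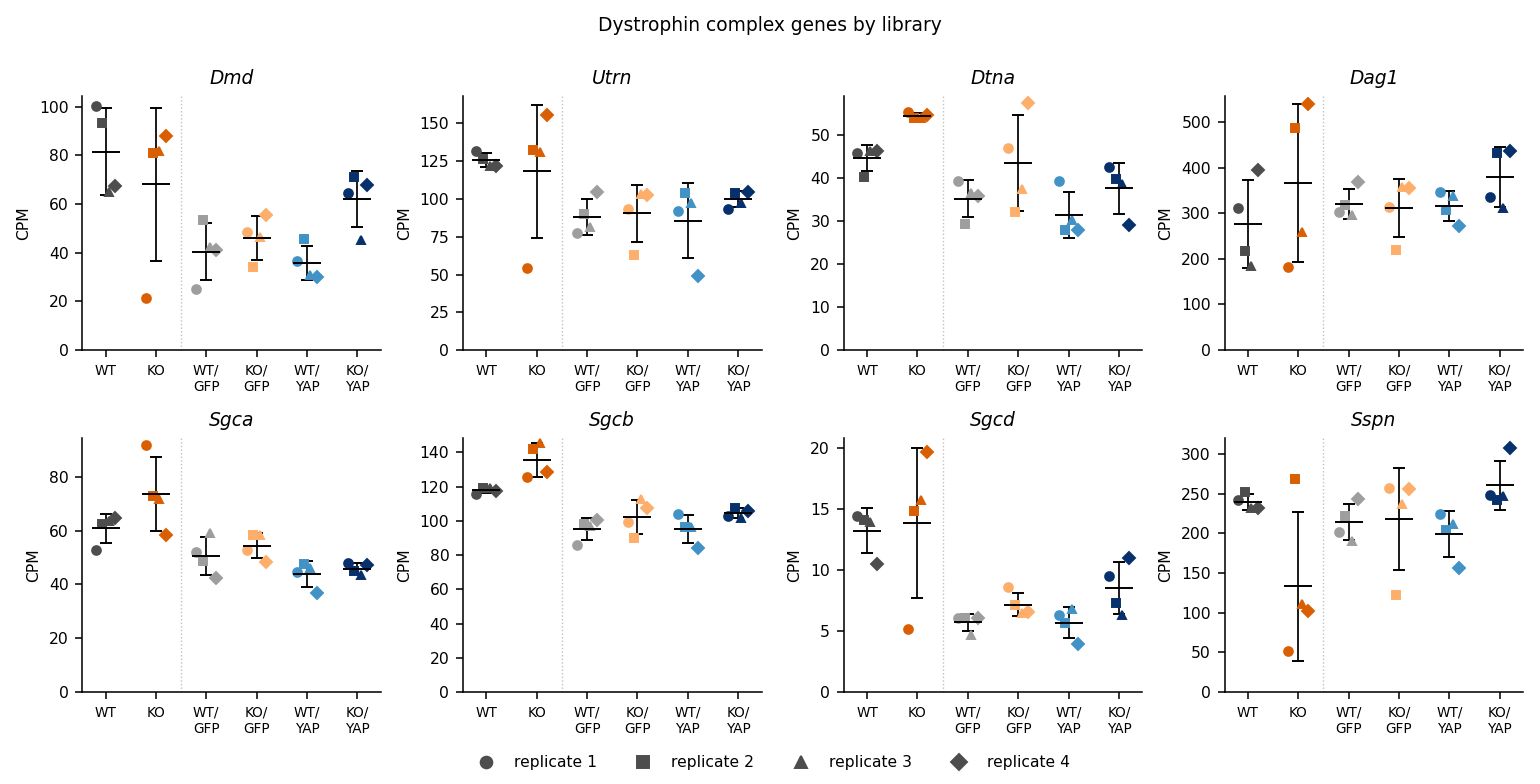
CPM of the 8 genes in each library (y axis, from 0) by group (x axis), with bars for the mean and SD of 4 libraries and marker shapes for replicates 1 to 4. WT and KO left of the dotted line are the uninjected hearts, which were normalized separately. The 4 uninjected XinβKO values of *Dtna* sit between 53.8 and 55.4 CPM, above all WT values, while *Dmd*, *Utrn*, *Sgcd* and *Sspn* each have 1 or more XinβKO libraries far below the rest.

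Between XinβKO and WT uninjected hearts the 8 genes had 4 positive and 4 negative log2 fold changes, with a median of 0.07 (median of all tested genes 0.001). Without XinβKO replicate 1, 7 of 8 were positive (median 0.19), and without XinβKO replicate 2 the split was 4 and 4 (median 0.01). In XinβKO/GFP against WT/GFP hearts 6 of 8 were positive (median 0.10, all genes -0.01), and in XinβKO/YAP against XinβKO/GFP hearts 6 of 8 were positive (median 0.18, all genes 0.01). Both use XinβKO/GFP replicate 2, and without it 8 of 8 were positive in the first (median 0.21) and 5 of 8 in the second (median 0.03). All 8 were negative in WT/YAP against WT/GFP hearts (median -0.10, all genes -0.01), and all 8 were positive in XinβKO/YAP against WT/YAP hearts (median 0.27, all genes 0.004). Both of these use the WT/YAP group, whose replicate 4 was lowest for all 8 genes. Without it the WT/YAP against WT/GFP differences of *Utrn*, *Dag1*, *Sgcb* and *Sgcd* were 0.15, 0.04, 0.05 and 0.12. In XinβKO/YAP against WT/YAP hearts *Sgca* was then at -0.01, *Utrn* at 0.03 and *Sgcb* at 0.08, so 7 of the 8 were positive.

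By the measure of likeness, the smallest root mean square difference of centred log2 values over the 16 injected libraries, *Dennd4c* and *Akap6* were among the 3 genes nearest to *Dmd* (0.21 each, where *Dmd* itself varied by 0.41 about its mean). *Sgcd* was nearest to *Gm26794*, *Dnajb2* and *B4gat1* (0.19 each, with 0.30 for *Sgcd* itself). These 2 genes were taken because their group means varied most among the 8 in injected hearts. *B4gat1* is an enzyme of dystroglycan glycosylation.

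The other genes of the pathway were taken from 5 lists of 58 genes, of which 55 could be tested. In uninjected hearts 1 of the 55 was called, where 6.69% of all tested genes were called. In XinβKO/GFP against WT/GFP hearts 7 were called, 6 higher and 1 lower, against 13.7% of all genes, and in XinβKO/YAP against XinβKO/GFP hearts 8 were called, 4 higher and 4 lower, against 14.8%. For the genotype by vector term 6 were called, 5 positive and 1 negative, against 7.56%. Nothing is read from these counts about the lists as wholes, and single genes are described below. In uninjected hearts DESeq2 called 3 of the pathway genes, the edgeR quasi-likelihood test 1 and the edgeR exact test 2. The same tests called 9, 7 and 4 in XinβKO/GFP against WT/GFP hearts, and 10, 9 and 5 in XinβKO/YAP against XinβKO/GFP hearts. For the genotype by vector term DESeq2 called 8 and the quasi-likelihood test 4. With limma 0 of the 55 were called between XinβKO/YAP and WT/GFP, WT/YAP and WT/GFP, and XinβKO/YAP and WT/YAP. The shares of all genes called were 0.0206%, 0% and 0.0411%. Unadjusted, 3, 4 and 10 of the 55 passed, against 6.08%, 6.93% and 11.1% of all genes. DESeq2 called 0, 0 and 1 in these comparisons, the edgeR quasi-likelihood test 0, 0 and 0, and the edgeR exact test 0, 1 and 1. The counts of DESeq2 and the edgeR tests stand here without their share over all genes, and nothing is read from them about the lists. XinβKO/GFP against WT/GFP and XinβKO/YAP against XinβKO/GFP share the XinβKO/GFP libraries, and opposite signs between them are not independent of each other.

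Among the other subunits and partners, *Cav3*, caveolin-3, the caveolin of muscle cells and a binding partner of dystroglycan, was called in both comparisons with XinβKO/GFP. Its values were 103, 87.7, 90.7 and 86.8 CPM with GFP in WT hearts and 126, 124, 129 and 124 CPM in XinβKO/GFP hearts, higher by 0.45 (0.28 to 0.62, limma adjusted p = 0.0018). With YAP it was at 103, 86.5, 93.3 and 97.6 CPM in XinβKO hearts, lower than with GFP by a log2 fold change of -0.40 (-0.57 to -0.23, adjusted p = 0.0035). In uninjected hearts *Cav3* was at 96.2, 107, 113 and 121 CPM in WT and 226.9, 141, 163 and 136 CPM in XinβKO, without overlap (0.58, adjusted p = 0.069). *Sync*, syncoilin, which links dystrobrevin to intermediate filaments, was called in XinβKO/YAP against XinβKO/GFP hearts. It had a mean of 10.2 ± 2.65 CPM in XinβKO/GFP and 17.1 ± 4.27 CPM in XinβKO/YAP hearts (SD, n = 4), a log2 fold change of 0.69 (0.32 to 1.06, adjusted p = 0.015). *Sync* shares exon bases with a listed gene on the opposite strand. The syntrophins *Sntb1* and *Sntb2*, *Dtnb*, *Sgce*, the ankyrins *Ank2* and *Ank3*, *Plec* and *Synm* were not called in any comparison.

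Of 9 tested ligands of dystroglycan, *Lama5*, the laminin α5 chain, and *Lamc1*, the γ1 chain, were called. *Lama5* was at 87.3, 72.2, 96.2 and 75.6 CPM in WT/GFP, 147, 104, 132 and 153 CPM in XinβKO/GFP, 84.1, 91.4, 93.8 and 115 CPM in WT/YAP and 89.8, 91.9, 87.5 and 95.3 CPM in XinβKO/YAP hearts. XinβKO/GFP was above WT/GFP in every library (0.68, 0.42 to 0.95, limma adjusted p = 0.0020), and XinβKO/YAP was below XinβKO/GFP by a log2 fold change of -0.54 (-0.80 to -0.28, adjusted p = 0.0083). The genotype by vector term was -0.75 (-1.12 to -0.38, adjusted p = 0.019). *Lamc1* moved the other way, from 507, 336, 565 and 473 CPM in XinβKO/GFP to 737, 689, 617 and 765 CPM in XinβKO/YAP hearts (0.60, 0.30 to 0.90, adjusted p = 0.0098), with a genotype by vector term of 0.70 (adjusted p = 0.045, not called in 10 of 16 fits that left out a library). *Lama2*, the laminin chain of muscle basement membrane, was not called in any comparison, nor was *Agrn* or *Hspg2*.

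All 17 genes of dystroglycan glycosylation could be tested. *Rxylt1*, a ribitol xylosyltransferase, was higher in XinβKO/GFP (31.5 ± 1.80 CPM) than in WT/GFP hearts (24.6 ± 1.43 CPM, SD, n = 4), by 0.34 (0.16 to 0.52, limma adjusted p = 0.014), and at 25.4 ± 0.748 CPM in XinβKO/YAP hearts it was lower than in XinβKO/GFP hearts by a log2 fold change of -0.30 (adjusted p = 0.027). *Pomt1*, an O-mannosyltransferase that starts the sugar chain, was lower in XinβKO/GFP than in WT/GFP hearts (-0.46, -0.75 to -0.17, adjusted p = 0.037). *Pomgnt1* and *Dolk* were called for the genotype by vector term alone (0.51 and 0.63), each call lost in 11 of 16 fits that left out a library. The other 13 were not called in any comparison. *Pomt1* and *Pomgnt1* each share exon bases with a listed gene on the opposite strand.

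The integrin and vinculin system anchors the same costameres in parallel. Of its 10 genes, *Tln1*, talin-1, and *Itga7*, the laminin-binding integrin α7 of muscle, were called, both higher in XinβKO/YAP than in XinβKO/GFP hearts. *Tln1* had a log2 fold change of 0.28 (0.13 to 0.43, limma adjusted p = 0.013) and a genotype by vector term of 0.34 (adjusted p = 0.045, not called in 12 of 16 fits that left out a library), and shares exon bases with a listed gene on the opposite strand. *Itga7* was at 121, 102, 119.9 and 123 CPM in XinβKO/GFP and at 142, 125, 152 and 185 CPM in XinβKO/YAP hearts (0.36, 0.15 to 0.57, adjusted p = 0.024, and 0.30 with an adjusted p of 0.053 without XinβKO/GFP replicate 2). The XinβKO/YAP libraries of *Itga7* were above every other injected library. Of 7 genes of YAP and its membrane partners, *Amotl1* and *Amotl2*, angiomotin-like proteins that bind YAP, were higher in XinβKO/GFP than in WT/GFP hearts, by 0.54 (adjusted p = 0.033) and 0.45 (adjusted p = 0.031). *Yap1*, *Wwtr1*, *Tead1*, *Nf2* and *Amot* were not called.

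**Figure D4:**
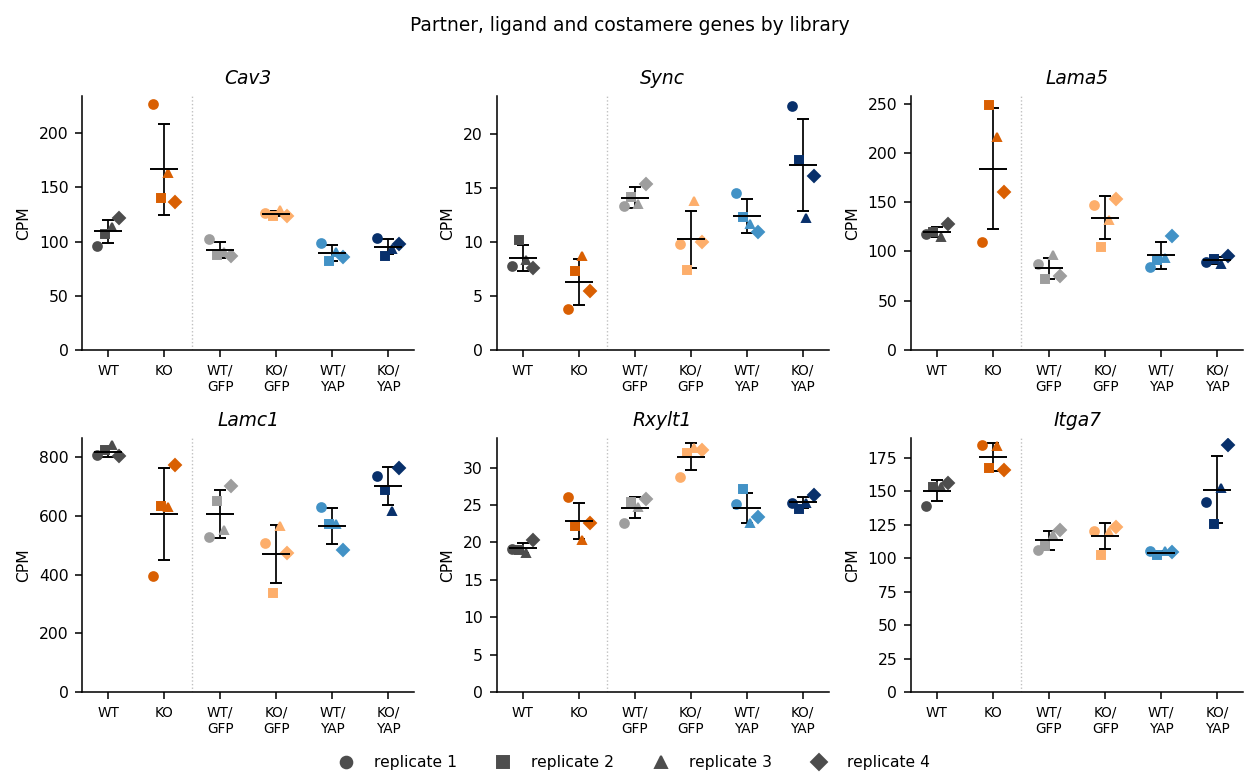
CPM (y axis, from 0) of *Cav3*, *Sync*, *Lama5*, *Lamc1*, *Rxylt1* and *Itga7* in each library by group, with bars for the mean and SD of 4 libraries and marker shapes for replicates 1 to 4. WT and KO left of the dotted line are uninjected and were normalized separately. *Cav3*, *Lama5* and *Rxylt1* are higher in XinβKO/GFP than in WT/GFP and XinβKO/YAP, with *Cav3* at 124 to 129 CPM in XinβKO/GFP.

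Some markers of other heart cells were called in the comparisons in which these partners were called. Markers counted here as lower or higher are limma calls. Of all tested genes, 13.7% were called in XinβKO/GFP against WT/GFP hearts and 14.8% in XinβKO/YAP against XinβKO/GFP hearts. In uninjected hearts the share was 6.69%. Nothing is read from counts near these shares. Of 7 fibroblast markers, 5 were lower in XinβKO/GFP than in WT/GFP hearts and 5 were higher in XinβKO/YAP than in XinβKO/GFP hearts, with summed levels of 4519 to 5329.95 CPM in WT/GFP, 2104 to 3504 in XinβKO/GFP and 4875 to 5863 in XinβKO/YAP. Of 6 macrophage markers 4 were lower and then 4 higher, with sums of 80.1 to 129 CPM in WT/GFP, 46.2 to 69.0 in XinβKO/GFP and 74.1 to 109 in XinβKO/YAP. Of 6 endothelial markers 3 were lower in XinβKO/GFP (sums 1349.9 to 1503 CPM in WT/GFP and 1175 to 1230.3 in XinβKO/GFP). Of 6 smooth muscle and pericyte markers 1 was lower in XinβKO/GFP than in WT/GFP hearts and 3 were higher in XinβKO/YAP than in XinβKO/GFP hearts, with sums of 1714 to 1872 CPM in WT/GFP, 1253 to 1564 in XinβKO/GFP and 1846 to 2375 in XinβKO/YAP. Of 8 cardiomyocyte markers 2 were higher in XinβKO/GFP, *Tnnt2* and *Pln*, and sums overlapped (52269 to 66058 CPM in WT/GFP and 59485 to 70492 in XinβKO/GFP). In uninjected hearts 3 of 7 fibroblast markers were lower in XinβKO, with sums of 2458 to 3793 CPM against 5019 to 5250.2 CPM in WT. No marker of these 5 lists was at 0 in every library of a group. Their part in the differences of *Cav3*, *Lama5*, *Lamc1*, *Itga7* and *Tln1* was not tested.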

How the data were processed

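RNA-seq libraries were strand-specific, 50 bp single-end for the uninjected and 150 bp paired-end for the injected hearts. By the submitters' processing notes and the paper's methods, the authors used Cutadapt 2.3 for trimming and HISAT2 2.1.0 for alignment to GRCm38, quantified genes with StringTie 1.3.4 and computed CPM with edgeR 3.26.1. The deposited values were used as a normalized signal, CPM on scaled library sizes, since the columns sum to 942566 to 1134439. Whole reads could be recovered from the value steps (at least 99.96% of values within 0.05 reads of a whole number in each library). Whether counting used strand is not given in the sources used here.

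Symbols, positions and exon lengths came from GENCODE M21 (GRCm38). Groups follow the labels. A gene was tested in a table if its value was above 1 CPM in 50% or more of that table's libraries. The test was limma 3.58.1 (trend, R 4.3.3) on log2(CPM + 1), which understates the change of low genes, with Benjamini-Hochberg adjustment and 1 model for all 16 injected libraries. For differential expression the authors used Fisher's exact test, in a tool not given in the sources used here. The exact test of edgeR on recovered reads was run as an alternative, because the deposited values are normalized. The genotype by vector term is the YAP against GFP difference in XinβKO less that in WT. Other alternatives were a pseudocount of 0.1, other filters and scalings, edgeR 4.0.16 and DESeq2 1.42.0 on recovered reads, a replicate block, a *Ddx3y* covariate and leaving out each library. The script was tested on simulated data. No pair of libraries in a group had more than 1.57% of genes at equal reads. The labels number the libraries of a group as replicates and give no litter, so p-values measure only the spread between these samples.

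Named genes were all 8 members, *Xirp2*, *Yap1*, and from each list up to 5 genes called in at least 1 comparison, those with the smallest adjusted p. The 3 genes nearest in likeness to 2 members were also named by rule. Genes named as not called, and *Lama2*, *Agrn* and *Hspg2* among them, were chosen after their values were seen. Some genes that the rule names are not reported here. The members and lists were chosen with earlier results of these data known. Lists of smooth muscle, Schwann, skeletal muscle, erythroid and cycling cell markers were also measured.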

Additional observations from a re-analysis of the deposited data

Results flagged for a closer look

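In groups of 4, a gap test (Dixon, which flags about 1 group in 20 by chance) was run on the 8 genes in 6 groups and on the transcript length index in 6 groups. It marked 8 of 54 groups, where 2.7 are expected by chance. The 8 marks fall on 7 libraries, and uninjected XinβKO replicate 1 has 2 of them.

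*Dmd* was at 21.4 CPM in uninjected XinβKO replicate 1 and at 81.0 to 87.8 CPM in the other 3. The transcript length index of the same library was -0.98, with 0.12 to 0.25 in the others. *Sspn* was at 123 CPM in XinβKO/GFP replicate 2 against 238 to 257 CPM in the others of its group, and at 307 CPM in XinβKO/YAP replicate 4 against 242 to 248 CPM. *Sgcd* was at 10.5 CPM in uninjected WT replicate 4 against 13.9 to 14.4 CPM, and at 4.68 CPM in WT/GFP replicate 3 against 6.03 to 6.10 CPM. *Sgca* was at 52.7 CPM in uninjected WT replicate 1 against 62.6 to 64.6 CPM, and *Dtna* at 40.2 CPM in uninjected WT replicate 2 against 45.8 to 46.4 CPM.

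The limma genotype by vector term, which compares the YAP against GFP difference in XinβKO with that in WT hearts, passed the threshold for 6 genes of the lists. These were *Sync* (0.87), *Lama5* (-0.75), *Lamc1* (0.70), *Dolk* (0.63), *Pomgnt1* (0.51) and *Tln1* (0.34). The call of *Lama5* held in the 11 other settings run for this term and in all 16 fits that left out a library, and the other 5 were lost in 10 to 13 of the 16 fits that left out a library and with the replicate block. None of the 8 genes of the complex had such a term past the threshold.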

How the results depend on the processing

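The count of called genes among the 8 stayed at 0 in all 7 comparisons under every other setting run for each, apart from the following. In uninjected hearts DESeq2 called 1 (*Dtna*), and the fit with the transcript length index, an alternative chosen after seeing the data, called 2 (*Dtna* and *Sgcb*). Over all genes these 2 settings called 1951 and 1982, where the main fit called 1044. In XinβKO/YAP against WT/YAP hearts the edgeR exact test called 1 (*Dmd*, log2 fold change 0.78, adjusted p = 0.0049), and 226 over all genes. With single libraries left out, the count ranged from 0 to 1 in uninjected hearts, with *Sspn* called without XinβKO replicate 2, and was 0 in all other comparisons. Of 1536 recomputed member fold changes 55 changed sign, in 20 of the 56 member and comparison pairs, all without a call. In 1 of the 55 the original value was past 1 standard error (*Dmd* in uninjected hearts, 0.06 without XinβKO replicate 1).

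Among the partners, *Cav3* kept its calls in both comparisons with XinβKO/GFP, and *Lama5* all of its 3 calls, under every setting run for them (13 for comparisons between groups, 11 for the genotype by vector term) and with each library left out. The genotype by vector calls of *Sync*, *Lamc1*, *Tln1*, *Pomgnt1* and *Dolk* were lost in 10 to 13 of the 16 fits that left out a library. *Pomt1* lost its call in 5 of 16, *Amotl1* in 4, *Amotl2* in 5, *Itga7* in 3, *Sync* in XinβKO/YAP against XinβKO/GFP hearts in 1, and *Rxylt1* in 5 in that comparison and 0 in XinβKO/GFP against WT/GFP. The edgeR exact test did not call *Pomt1* (adjusted p = 0.098), *Rxylt1* (0.10) or *Amotl1* (0.069) in XinβKO/GFP against WT/GFP hearts, nor *Rxylt1* (0.096), *Itga7* (0.11) or *Tln1* (0.13) in XinβKO/YAP against XinβKO/GFP hearts. With only the groups compared, these 6 calls and those of *Amotl2* (0.057) and *Sync* (0.076) were lost, and quantile normalization lost *Pomt1* (0.054).

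Counts over all genes moved more. In uninjected hearts the 1044 calls were 1951 with DESeq2, 1927 with the *Ddx3y* covariate and 1982 with the length index, and with the replicate block 2.47% of tested genes were called (6.69% without it). Leaving out any 1 of the 8 libraries moved this count by over 1.5 times, from 379 without WT replicate 1 to 2098 without XinβKO replicate 4. With only the groups compared in the fit, XinβKO/GFP against WT/GFP gave 930 (1993 in the joint model), XinβKO/YAP against XinβKO/GFP 1208 (2156) and XinβKO/YAP against WT/YAP 15 (6). Without XinβKO/GFP replicate 1 or 4 the first of these was 1263 or 1262. The edgeR exact test and DESeq2 gave 22 and 24 for XinβKO/YAP against WT/GFP (3), 33 and 11 for WT/YAP against WT/GFP (0), and 226 and 67 for XinβKO/YAP against WT/YAP (6). The genotype by vector count of 1104 was 707 with the block, 1694 with the length index, and 631 to 1474 with a library left out. The edgeR quasi-likelihood test on recovered reads called 956 genes in uninjected hearts, 1904 and 2103 in the comparisons with XinβKO/GFP, 3, 0 and 6 in the other 3, and 1033 for the genotype by vector term.

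With the replicate number as a block, 0 of the 8 genes were called in all 7 comparisons. Among the partners the block ended 5 of the 6 genotype by vector calls, *Sync* (adjusted p = 0.070), *Lamc1* (0.078), *Tln1* (0.082), *Pomgnt1* (0.069) and *Dolk* (0.075), and that of *Rxylt1* in XinβKO/YAP against XinβKO/GFP hearts (0.0501). Same-numbered libraries did not deviate together (median correlation -0.11 over 4 pairs and -0.01 over 24), and 1 of 8 and 3 of 16 libraries correlated best with their own number.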

Other observations

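The uninjected XinβKO libraries split differently by gene. *Sspn* and *Yap1* were low in replicates 1, 3 and 4 and not in replicate 2, where *Yap1* was within the WT range and *Sspn* above it. The summed level of 5 cycling cell markers was 61.6, 91.2, 46.5 and 440.2 CPM in replicates 1 to 4, against 328 to 445 CPM in WT hearts, so replicate 4 was within the WT range there. In injected hearts the same sum was 44.1 to 277 CPM in XinβKO/GFP and 279 to 316 CPM in XinβKO/YAP hearts. It was 320 to 407 CPM in WT/GFP and 309 to 426 CPM in WT/YAP hearts. The XinβKO/YAP range was thus below that of WT/GFP and overlapped that of WT/YAP. Erythroid marker sums were 588 to 1604 CPM in XinβKO/GFP, 1587 to 3887 CPM in WT/GFP and 898 to 1001 CPM in XinβKO/YAP hearts. All 3 erythroid and 4 of 5 cycling markers were called lower in XinβKO/GFP than in WT/GFP hearts (limma), where 13.7% of all tested genes were called. Of 3 Schwann cell markers, 1 had values in uninjected and 2 in injected hearts, with sums of 3.62 to 9.55 CPM over the 6 groups. Of the skeletal muscle markers, the 1 with values was at 0.229 to 2.297 CPM in the injected hearts.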
